A study of Mus musculus with 6 samples.

Results

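The genes described here encode the proteins, cross-linking enzymes and proteases of the cornified envelope, among them the late cornified envelope (Lce) family. They were compared in mouse skin between 3 wild-type and 3 knock-in samples, each measured on 1 array. The members were chosen by name, and each was read from a probe set that the platform annotation gives no other gene. Where a gene had several such probe sets, the brightest over the 6 arrays stood for it. Of 38 listed genes, 33 had a probe set, out of 18193 genes in all, and 5 (Flg2, Sprr4, Lce1e, Lce3d and Lce3e) were not analysed here. Genes were tested where the signal was above the median of that array in 3 or more of the 6. This kept 31 members of 11670 genes, and left out Nccrp1 and Lce1g. Of the 31, 29 exceeded the median on all 6 arrays, Lce3a on 5 and Lce3f on 4. Those 2 would have entered on the 3 knock-in arrays alone.

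The wild-type samples carry the genotype WT, with the source given as C57BL/6. The knock-in samples carry the genotype code KA, with the source KAB6. All 6 have the C57BL/6 background and come from skin. The labels name neither the altered gene nor an age, a sex, a body site or a treatment. They also do not say that the samples were separate animals, so p-values measure only the spread between these samples. Skin is a mixture, and fewer cells of a type cannot be told apart from less RNA per cell in any value below.

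The cornified envelope is a layer of cross-linked protein that replaces the plasma membrane of keratinocytes as they die at the skin surface. Transglutaminases join precursors such as loricrin, involucrin and the Lce proteins, and lipids are attached to its outer face. Proteases then process filaggrin and dissolve the corneodesmosomes, so that the outermost cells are shed. Most of the precursor genes stand side by side in the epidermal differentiation complex. In human skin, LCE1 genes are known from normal epidermis and LCE3 genes from injured and psoriatic epidermis.

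On the knock-in arrays all 4 measured Lce3 genes were higher, by 1.31 to 3.42 on the log2 scale, as were Lce1h, Lce1f, the repetin gene Rptn and the hornerin gene Hrnr. The transglutaminase gene Tgm3 was lower, as were Lce1m, Scel, Cdsn, Kprp, Ivl, Spink5 and Crct1, by 0.34 to 1.46. The most abundant signal of the set, loricrin (Lor), did not pass the test. In all, 8 of the 31 tested members rose, 8 fell and 15 did not pass (limma, Benjamini-Hochberg adjusted p under 0.05 over all genes tested). Over all 11670 genes the same test called 31.2%, with 14.8% higher and 16.3% lower. Lce3a and Lce3f needed knock-in arrays to enter, so the count of members that rose is partly set by the filter. With a stricter filter, above the median on every array, 6 of 29 members rose and 8 fell. Of 10407 genes kept by that filter, 1439 rose and 1680 fell. Groups did not overlap for 16 members (51.6%), against 47.1% of all genes tested, so a member with separate groups is not unusual on these arrays. With every array centred on its median, 2567 genes were higher and 1202 lower, in place of 1729 and 1907. The median log2 difference was -0.23 over the 31 members and -0.02 over all genes. All differences subtract the wild-type mean of log2(signal + 16) from the knock-in mean and carry standard errors. This scale understates the change of dim genes. Other errors are SDs with n = 3 per group.

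Other features of the arrays moved with the groups. Xist read 27.8 to 32.5 on the wild-type and 3442 to 4005 on the knock-in arrays, and the Y-linked Eif2s3y read 639 to 721 and 4.43 to 5.45. Sex and genotype thus coincide on these arrays, and their effects cannot be told apart here. The 5' control for 18S ribosomal RNA read 1314 to 2286 on wild-type and 166 to 766 on knock-in arrays. The middle control read 1009 to 1706 and 410 to 919, and the 3' control overlapped at 260 to 483 and 220 to 306. Summed signals of 12 measured hair follicle markers, of 13 listed, ran from 61809 to 80419 in wild-type and from 20553 to 37695 in knock-in, and all 12 fell. Those of 9 measured neutrophil markers, of 11 listed, ran from 652 to 888 and from 15814 to 20098, and most of the knock-in sum came from S100a8 (8492 to 10593) and S100a9 (5248 to 6877). Of the 7 neutrophil markers tested, Ngp, Mmp8, Cxcr2 and Csf3r were below the median of every wild-type array and entered through the knock-in arrays, so their direction was set by the filter. S100a8, S100a9 and Stfa2l1 rose. Below the filter, the granule gene Ltf overlapped between the groups at 1.97 to 30.3 and 12.4 to 33.3. Camp, also below it, was higher on every knock-in array, at 6.47 to 8.67 and 38.6 to 50.5. The 6 macrophage markers summed to between 6006 and 9165 and between 10304 and 15590, with 3 higher and none lower. The 6 epidermal keratinocyte markers, summed to between 25535 and 29180 and between 30814 and 39115, with Krt5 and Krt14 higher and Krt1, Krt10, Itgb4 and Col17a1 not past the threshold. The 3 measured sebocyte markers, of 5 listed, summed to between 1444 and 2537 and between 3683 and 4535, with Elovl3 higher. Most of the knock-in sum came from Elovl3 (2620 to 3071). Mc5r (-0.45, lower on every knock-in array) and Fa2h (0.37, with overlapping groups) did not pass. Of 5 skeletal muscle markers, Myh4 (-1.75), Ckm (-1.05) and Tnnt3 (-0.89) were lower, and of 5 dermal fibroblast markers Pdgfra was higher and Col1a1 lower, with overlapping sums for both lists. No marker of these 7 lists read 0 on all arrays. The part of these differences in the results below was not tested.

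The Lce genes lie in 2 named families that moved differently, so the sequences just upstream of their starts are shown first for the 4 Lce3 genes, which rose together, and for 4 Lce1 genes that did not move alike. Each is the 150 bases before the start of the gene in RefSeq, assembly GRCm38.p6, written 5' to 3' on the gene's strand. Capitals mark the TATA-like letters ATAAAAG or TATAAA, the letters TTGTGAAA and the letters CACTGTCTCACAGG, each searched on both strands. ATAAAAG and TTGTGAAA were picked after reading these sequences, and CACTGTCTCACAGG is the longest string that at least 6 of the 11 Lce1 windows share. The Lce3 windows are chr3:92926231-92926380 on the minus strand and, on the plus strand, chr3:92932829-92932978 (Lce3b), chr3:92944336-92944485 (Lce3c) and chr3:92992067-92992216 (Lce3f). The Lce1 windows are all on the minus strand, at chr3:92765066-92765215 (Lce1h), chr3:92778900-92779049 (Lce1i), chr3:92851287-92851436 (Lce1l) and chr3:93019062-93019211 (Lce1m).

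Lce3a: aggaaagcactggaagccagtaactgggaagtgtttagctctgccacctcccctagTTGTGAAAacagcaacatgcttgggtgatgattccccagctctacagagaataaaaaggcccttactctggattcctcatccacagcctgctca
Lce3b: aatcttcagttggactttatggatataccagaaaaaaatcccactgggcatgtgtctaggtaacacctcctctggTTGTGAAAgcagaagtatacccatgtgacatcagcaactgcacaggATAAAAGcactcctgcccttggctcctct
Lce3c: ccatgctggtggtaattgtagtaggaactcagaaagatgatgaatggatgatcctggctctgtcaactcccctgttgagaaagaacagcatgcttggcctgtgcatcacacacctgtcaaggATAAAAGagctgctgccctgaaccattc
Lce3f: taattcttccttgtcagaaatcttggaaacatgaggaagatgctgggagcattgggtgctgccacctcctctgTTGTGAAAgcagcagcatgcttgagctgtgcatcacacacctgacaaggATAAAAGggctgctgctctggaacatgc

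Lce1h: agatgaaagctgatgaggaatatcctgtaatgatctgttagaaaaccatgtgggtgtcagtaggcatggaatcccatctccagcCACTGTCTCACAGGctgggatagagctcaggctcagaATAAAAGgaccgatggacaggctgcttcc
Lce1i: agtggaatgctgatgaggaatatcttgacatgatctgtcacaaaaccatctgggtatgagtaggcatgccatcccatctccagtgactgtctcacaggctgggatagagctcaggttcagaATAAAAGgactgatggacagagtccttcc
Lce1l: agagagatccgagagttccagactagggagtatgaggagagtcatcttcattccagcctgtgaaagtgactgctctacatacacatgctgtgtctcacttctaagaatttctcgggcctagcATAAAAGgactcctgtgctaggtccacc
Lce1m: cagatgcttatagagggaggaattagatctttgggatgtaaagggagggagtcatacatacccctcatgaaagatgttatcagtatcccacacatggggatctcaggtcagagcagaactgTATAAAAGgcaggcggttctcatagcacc

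Of the 38 genes, 33 had an entry in the promoter table, 11 of them Lce1 and 6 Lce3 genes, and Lce1f, Kprp, Crct1, Nccrp1 and Spink5 had none. ATAAAAG stood in the window of 9 of 11 Lce1 and 5 of 6 Lce3 genes, and in 3.01% of all 32851 windows of the table. It overlaps TATAAA where a T precedes it, as in Lce1m. TTGTGAAA stood in 5 of 6 Lce3 windows, with Lce3c the exception, in 0 of 11 Lce1 windows and in 0.612% of all windows. CACTGTCTCACAGG stood in 6 of 11 Lce1 windows, which follows from how it was picked, and in 0 of 6 Lce3 windows. Those 6 were its only windows among all 32851 (0.0183%), so that share is no separate background. The AP-1 letters TGANTCA were in none of the 17 Lce windows, in 6 of the 16 other members (Lor, Ivl, Flg, Flg2, Rptn and Scel) and in 4.24% of all windows. A match is only a description of these letters. The 9 Lce1 windows other than those of Lce1l and Lce1m were 64.8% to 86.7% identical to each other in global alignments, and those of Lce1l and Lce1m were 51.1% to 58.4% identical to the Lce1 windows and to each other. The 6 Lce3 windows were 54.9% to 87.8% identical to each other, with Lce3a at 54.9% to 59.3% to the others. Between the families identity ran from 46.9% to 57.7%, which overlaps the Lce3 range. Lce1h and Lce1i, whose values are given below, share 130 of 150 aligned bases.

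All 4 measured Lce3 genes rose. Lce3f (probe set 1456248_at) read 62.3, 39.7 and 17 on the wild-type and 502, 597 and 540 on the knock-in arrays. All knock-in values lay above the wild-type range, and the log2 difference was 3.42 ± 0.27 (limma adjusted p = 7.30e-05), or 10.7-fold on that scale. Lce3f lay below the array median on wild-type replicates 2 and 3, and could not have entered the test without the knock-in arrays. Its direction was thus partly set by the filter, and its fold is taken against dim signal. Tested with no filter, it had a limma adjusted p of 0.000205. With an offset of 1 or 64 in place of 16 the difference was 3.93 or 2.58. Lce3c (1419317_x_at), the brightest of the family, read 201, 179 and 393 in wild-type and 996, 1272 and 757 in knock-in. The groups did not overlap, and it rose by 1.95 ± 0.28 (limma adjusted p = 0.00142).

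Lce3a (1456001_at) was dim in wild-type, at 46.0, 30.9 and 84.2, and read 192, 231 and 203 in knock-in. It rose by 1.76 ± 0.25 (limma adjusted p = 0.00128), without overlap. Lce3a lay below the array median on wild-type replicate 2, so it also needed a knock-in array to enter the test. Tested with no filter, it had a limma adjusted p of 0.00290. Lce3b (1429641_x_at) read 84.3, 87.0 and 122 against 289, 284 and 220, a difference of 1.31 ± 0.16 (limma adjusted p = 0.000674). The probe sets of Lce3b and Lce3c end in _x_at, which marks probes that may also bind related transcripts, so these 2 genes are not read independently of their relatives. The probe sets of Lce3a and Lce3f carry no such mark, but their probes were not checked against related transcripts. All 4 calls held under each of the 14 alternatives that could be run for them, but these were not the same 14. A stricter filter, above the median on every array, left out Lce3a and Lce3f. Leaving out shared probe sets removed Lce3b and Lce3c, so no Lce3 gene was tested under both settings.

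**Figure D1:**
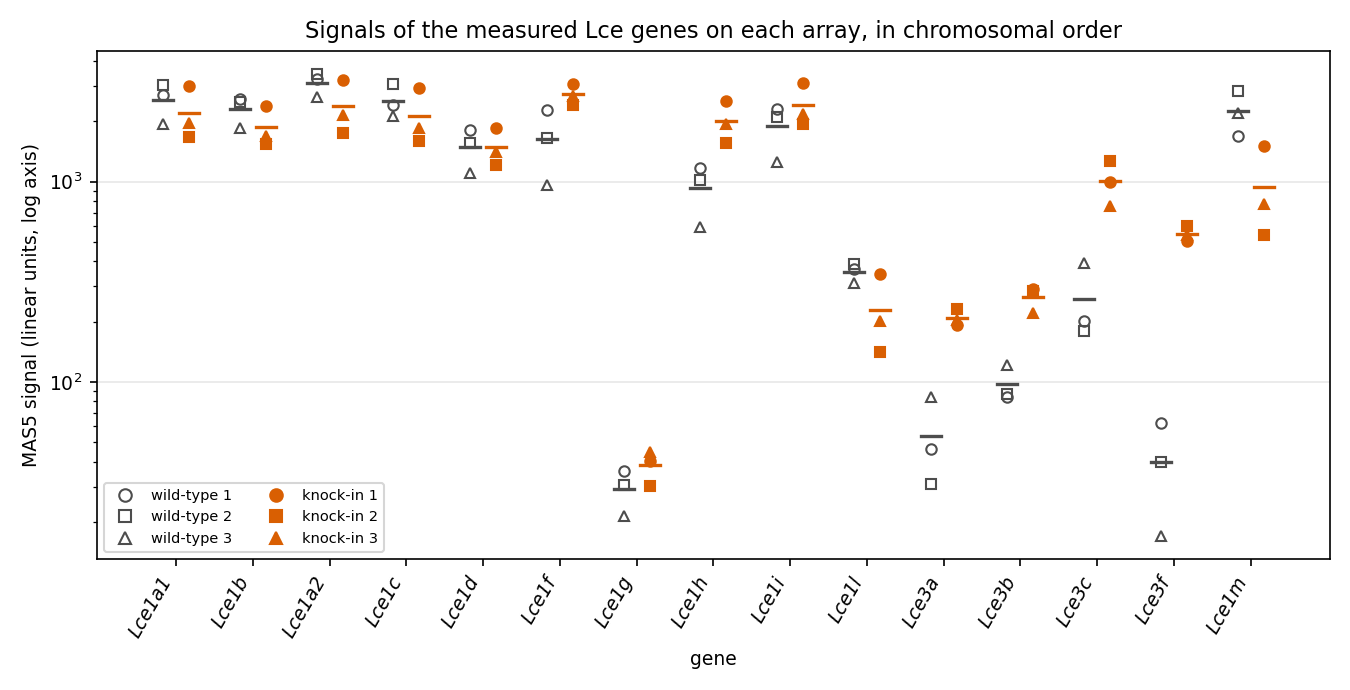
MAS5 signal (log axis) of the 15 measured Lce genes in chromosomal order, wild-type arrays as open and knock-in arrays as filled symbols, with group means as bars. The 4 Lce3 genes, Lce1f and Lce1h lie higher on every knock-in array, Lce1m lies lower on every one, and the groups overlap for the other 8.

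The Lce1 genes did not all move the same way. Of 11 measured genes 10 were tested, 2 rose, 1 fell and 7 did not pass. The share called was 30%, against 31.2% of all genes tested, and groups were apart for 30%, against 47.1%. The family was thus called about as often as genes in general. Lce1h (1449959_x_at) read 1171, 1024 and 594 in wild-type and 2535, 1552 and 1946 in knock-in, a log2 difference of 1.13 ± 0.26 (limma adjusted p = 0.0110). Lce1f (1420550_at) read 2275, 1643 and 963 against 3078, 2424 and 2687, with groups that were apart by a narrow margin. Its difference was 0.82 ± 0.26 (limma adjusted p = 0.0452). That call was lost when any array but wild-type replicate 1 was left out, with adjusted p of 0.0725 and 0.0806 without wild-type replicates 2 and 3 and of 0.118, 0.0600 and 0.110 without knock-in replicates 1, 2 and 3. Without wild-type replicate 3 the difference was 0.49. The call was also lost with no filter (0.0715), with quantile normalization (0.0575) and with the mean over probe sets (0.0805). A dimmer probe set of Lce1f (1449902_at) had a difference of 0.76, with overlapping groups.

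Lce1m (1429565_s_at) went the other way. It read 1687, 2839 and 2190 in wild-type and 1499, 543 and 769 in knock-in, a difference of -1.34 ± 0.33 (limma adjusted p = 0.0164), with knock-in replicate 1 close to the lowest wild-type value. The adjusted p was 0.0570 without wild-type replicate 3 and 0.0619 without knock-in replicate 3. Lce1l (1418855_at) read 366, 386 and 311 against 345, 142 and 200. Its difference of -0.67 ± 0.26 did not pass (limma adjusted p = 0.0819), and passed at -1.0 without knock-in replicate 1 (0.00488).

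The other Lce1 genes were bright and overlapped between the groups. Lce1a1, Lce1a2, Lce1b, Lce1c and Lce1d had mean signals between 1488 and 3114 in wild-type and between 1494 and 2373 in knock-in, with log2 differences from -0.43 to 0.01. Without knock-in replicate 1, Lce1a2 (-0.67, limma adjusted p = 0.0137) and Lce1c (-0.53, 0.0458) passed as lower. Lce1i (1420741_x_at), the neighbour of Lce1h with the similar upstream window, read 2305, 2103 and 1256 in wild-type and 3109, 1932 and 2166 in knock-in, a difference of 0.36 ± 0.24 that did not pass (limma adjusted p = 0.293). Lce1g was dim on all arrays, with signals from 21.4 to 44.8, and was below the filter. The probe sets of Lce1d, Lce1h, Lce1i and Lce1m may read more than 1 Lce1 transcript.

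The arrays of a group stood in much the same order for each Lce1 gene. Knock-in replicate 1 was the highest and knock-in replicate 2 the lowest of the knock-in arrays for all 10 tested Lce1 genes, and wild-type replicate 3 was the lowest of its group for 9 of the 10. Over the 31 members, knock-in replicate 1 was the highest knock-in array for 25 (80.6%), against 28.3% of all genes tested. Knock-in replicate 1 also had the lowest summed hair follicle signal, 20553, and the highest summed epidermal keratinocyte signal, 39115. The part of these in the order of the arrays was not tested. The count of members that fell moved with single arrays, to 12 without knock-in replicate 1, 5 without knock-in replicate 2, 3 without knock-in replicate 3 and 4 without wild-type replicate 3. With any 1 array left out, the count that rose was between 6 and 8.

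**Figure D2:**
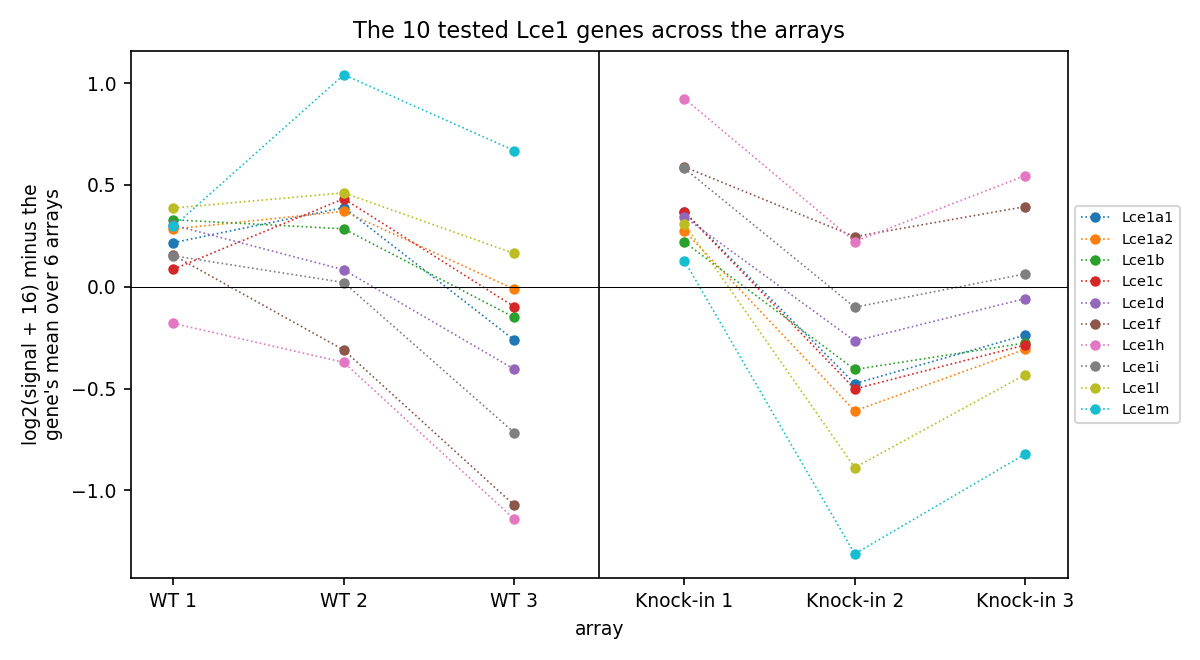
Log2(signal + 16) of the 10 tested Lce1 genes on each array, minus the gene's mean over the 6 arrays; dotted lines only link the points of a gene, since replicates have no order. All 10 genes are highest on knock-in replicate 1 among the knock-in arrays, and only Lce1f and Lce1h lie above 0 on all 3.

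Of the 38 genes 27 lie on chromosome 3, and 22 of these were measured. From Lor the RefSeq order continues with Sprr4, Ivl and Lce1a1 through Lce1i, then Kprp, Lce1l, the 6 Lce3 genes, Crct1, Lce1m, Flg2, Flg, Hrnr and Rptn. The 4 measured Lce3 genes rose between Lce1l and Crct1. Their neighbour Crct1, a cysteine-rich protein of differentiated keratinocytes, read 6470, 6504 and 7054 in wild-type and 5524, 5190 and 5114 in knock-in, a difference of -0.34 ± 0.09 (limma adjusted p = 0.0188). The groups were apart, but the call was lost without wild-type replicate 3 (0.0788), knock-in replicate 2 (0.0567) or 3 (0.0698), and with each array centred on its median (0.0949). Kprp, a proline-rich keratinocyte protein, read 1207, 1368 and 1300 against 1142, 712 and 771, a difference of -0.58 ± 0.16 (limma adjusted p = 0.0272). Its adjusted p was 0.0704 and 0.0833 when wild-type replicates 2 and 3 were left out in turn, and 0.0756 and 0.0993 for knock-in replicates 2 and 3.

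**Figure D3:**
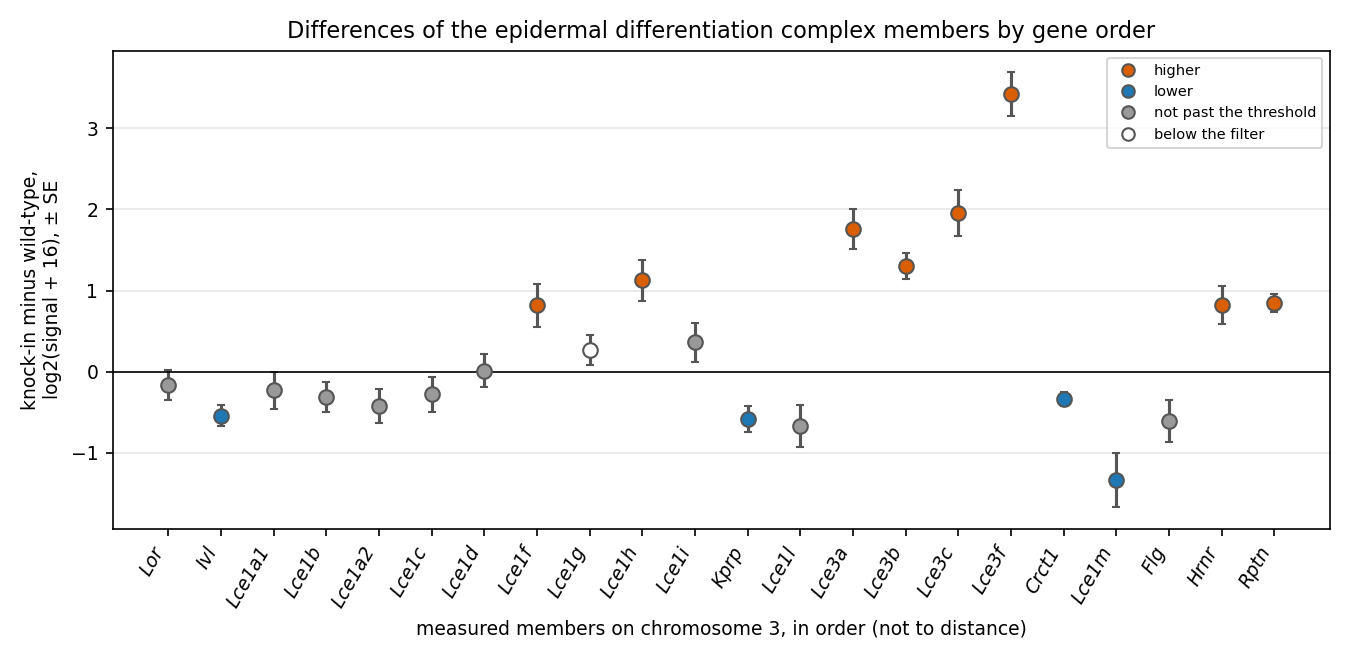
Log2 difference ± SE of the 22 measured members on chromosome 3, in gene order and not to distance, filled by the call (adjusted p under 0.05). The 4 Lce3 genes reach 1.31 to 3.42 between Lce1l (-0.67) and Crct1 (-0.34), and Hrnr and Rptn lie above 0 beside Flg (-0.61).

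Among the large structural proteins, repetin and hornerin rose, involucrin fell, and loricrin and filaggrin did not pass. Rptn, an S100-fused envelope protein (1420431_at), read 634, 522 and 505 in wild-type and 1077, 971 and 967 in knock-in. Its difference was 0.85 ± 0.11 (limma adjusted p = 0.000808). Its 2 other probe sets were near background, with means from 11.2 to 22.5 and differences of -0.42 and -0.09, and the mean over all 3 gave 0.11 (0.392). Hrnr, another S100-fused protein (1451613_at), read 1237, 1113 and 680 against 2309, 1463 and 1561, a difference of 0.82 ± 0.24 (limma adjusted p = 0.0306). Leaving out wild-type replicate 3 gave an adjusted p of 0.0848, and leaving out knock-in replicates 1 and 3 in turn gave 0.0873 and 0.0606.

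Filaggrin (Flg, 1427268_at), which bundles keratin filaments and belongs to the same S100-fused group, read 3272, 2277 and 1438 in wild-type and 1709, 1289 and 1342 in knock-in. Wild-type replicate 3 lay within the knock-in range, and the difference of -0.61 ± 0.26 did not pass (limma adjusted p = 0.105). Without that array it was -0.92 (0.0149). Loricrin (Lor, 1448745_s_at), the main bulk protein of the envelope, read 7764, 9035 and 7613 in wild-type and 9939, 5983 and 6309 in knock-in. Knock-in replicate 1 was the highest and the other knock-in arrays the lowest of all 6. The difference was -0.17 ± 0.19 (limma adjusted p = 0.525), or -0.40 without knock-in replicate 1 (0.0288). Both other Lor probe sets gave -0.37. Groups overlapped for 1420183_at, while the much dimmer 1420184_at was lower on every knock-in array, at 116 to 135 in wild-type and 89.6 to 95.5 in knock-in. The probe set used is marked as shared, and without shared probe sets Lor did not pass at -0.37 (limma adjusted p = 0.23). Involucrin (Ivl, 1439878_at), an early scaffold of the envelope, read 1768, 1481 and 1836 against 1350, 1124 and 1009. It fell by 0.54 ± 0.13 on the log2 scale (limma adjusted p = 0.0136), with an adjusted p of 0.0583 when wild-type replicate 3 was left out and of 0.0547 for knock-in replicate 3. A dimmer Ivl probe set (1422222_at) gave -0.44, with overlapping groups.

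The 2 structural genes were also set against each other within each array. The log2 ratio of Rptn to Lor was -3.58, -4.07 and -3.87 in wild-type and -3.19, -2.60 and -2.69 in knock-in. The groups did not overlap, with a difference of 1.02 (two-sided exact permutation p = 0.1, the smallest that 3 against 3 allows, and 0.2 adjusted over the 4 ratios tested). With the mean over probe sets, where the dim Rptn probe sets enter, the difference was 0.42 and the groups overlapped (exact permutation p = 0.2).

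Sciellin and corneodesmosin fell. Sciellin (Scel, 1422837_at), a precursor of the envelope, read 1766, 1994 and 2089 in wild-type and 1122, 963 and 1115 in knock-in, a difference of -0.86 ± 0.10 (limma adjusted p = 0.000566). Corneodesmosin (Cdsn, 1435191_at), the adhesive protein of corneodesmosomes, read 327, 369 and 394 against 222, 240 and 212, a difference of -0.65 ± 0.11 (limma adjusted p = 0.00234). Both sets of values were well apart, and both calls held under all 15 alternatives. A second Scel probe set read under 5 on all arrays and gives no information. Cornifelin (Cnfn), an envelope component, overlapped between the groups, at 1059 ± 247 and 1184 ± 106, and Nccrp1 was below the filter with signals from 9.13 to 27.3.

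**Figure D4:**
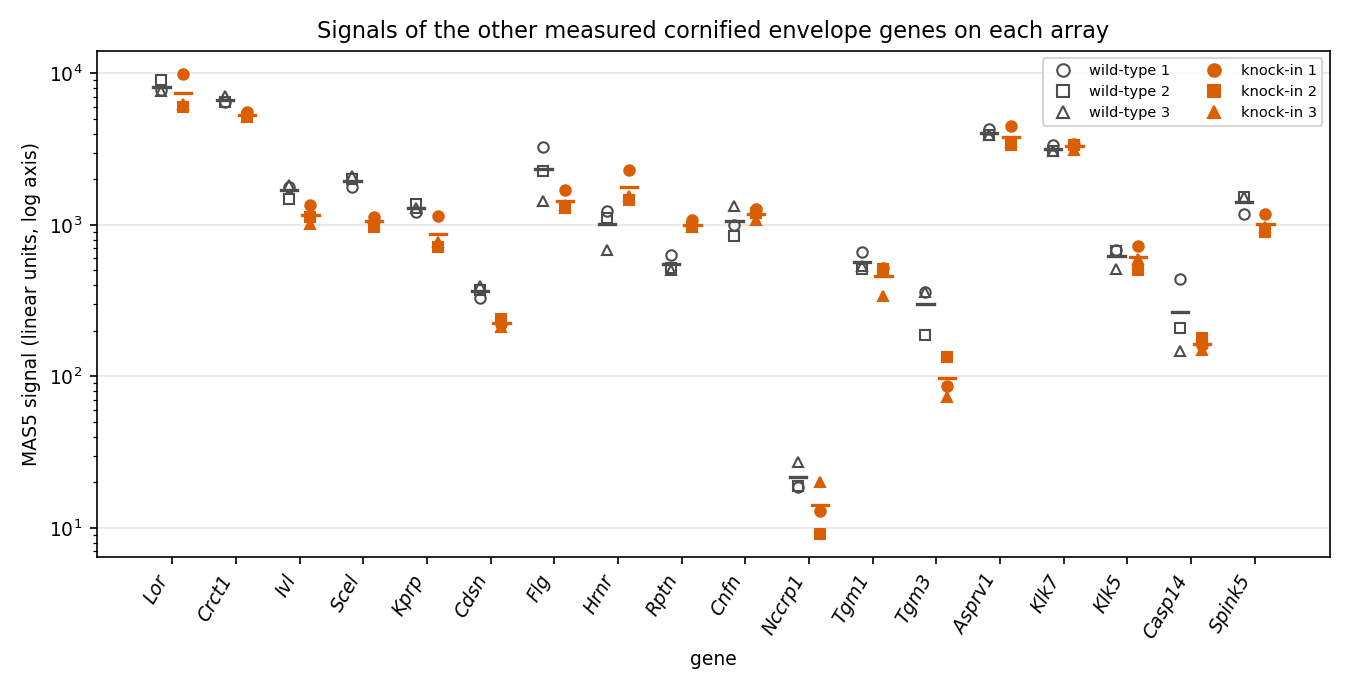
MAS5 signal (log axis) of the 18 measured members outside the Lce family, wild-type arrays as open and knock-in arrays as filled symbols, with group means as bars. Rptn and Hrnr are higher on all 3 knock-in arrays, and Crct1, Ivl, Scel, Kprp, Cdsn, Tgm3 and Spink5 are lower on all 3.

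Of the 2 transglutaminases 1 fell. Tgm3 (1440150_at), which acts in the hair follicle and the upper epidermis, read 359, 187 and 361 in wild-type and 86.2, 134 and 73.2 in knock-in. The groups did not overlap, and it fell by 1.46 ± 0.27 on the log2 scale (limma adjusted p = 0.00458), while a dimmer probe set gave -0.82 with separate groups. Summed hair follicle markers fell on the same arrays, as given above, and their part in the value of Tgm3 was not tested. Tgm1, the membrane-bound enzyme of keratinocytes (1451416_a_at), read 661, 512 and 537 against 523, 509 and 337, and its difference of -0.33 ± 0.17 did not pass (limma adjusted p = 0.185). The log2 ratio of Tgm3 to Tgm1 was -0.85, -1.38 and -0.55 in wild-type and -2.40, -1.80 and -1.99 in knock-in, a difference of -1.13 without overlap (two-sided exact permutation p = 0.1, adjusted 0.2).

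None of the 4 proteases passed the test, and the inhibitor of the kallikreins was lower. Klk7, the chymotrypsin-like kallikrein of shedding, read 3188 ± 174 on wild-type and 3317 ± 163 on knock-in arrays, a difference of 0.06 ± 0.09 (limma adjusted p = 0.651). Klk5, which activates it, had 623.5 ± 95.3 and 609.7 ± 114, a difference of -0.04 ± 0.16 (0.879). Asprv1, an aspartic protease that cleaves filaggrin, had 4044 ± 228 and 3773 ± 599 (-0.11 ± 0.12, 0.525). Casp14, a caspase of filaggrin breakdown, read 440, 209 and 146 in wild-type and 162, 178 and 149 in knock-in, where wild-type replicate 1 alone was high (-0.51 ± 0.32, 0.252). Spink5, the inhibitor LEKTI that restrains the kallikreins (1430567_at), read 1180, 1521 and 1538 against 1171, 891 and 965. Knock-in replicate 1 lay just under wild-type replicate 1, and the difference was -0.48 ± 0.14 (limma adjusted p = 0.0296). Leaving out wild-type replicates 2 and 3 in turn gave Spink5 an adjusted p of 0.0815 and 0.108, and knock-in replicates 2 and 3 gave 0.0860 and 0.0955. Median centring gave 0.0588. The ratios Klk5 to Spink5 and Klk7 to Klk5 had differences of 0.44 and 0.09 with overlapping groups (two-sided exact permutation p = 0.2 and 0.6, adjusted 0.267 and 0.6).

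Other genes of terminal differentiation came from 4 lists. Of 16 tested envelope precursors and linkers outside the members, 7 rose, 3 fell and 6 did not pass, with a median difference of 0.39. The shares were 43.8% higher and 18.8% lower, against 14.8% and 16.3% of all genes tested. Of the 7, Sprr2i, Sprr2f and Sprr2k were below the median of every wild-type array and entered through the knock-in arrays, so the count and the median are partly set by the filter. With a stricter filter 3 of 12 rose. Those with the smallest p were the small proline-rich precursors Sprr2i (4.15 ± 0.25), Sprr2d (3.10 ± 0.20) and Sprr1b (3.00 ± 0.22) and the annexin partner S100a10 (1.01 ± 0.11), with limma adjusted p from 2.13e-05 to 0.000330. Sprr2i read 1.51 to 8.54 in wild-type and 236 to 481 in knock-in, so its difference is taken against background signal, and Sprr1b 245 to 472 and 2768 to 3499. The 3 that fell were the transglutaminase Tgm5 (-0.63) and the plakins Ppl (-0.57) and Evpl (-0.53), which link the envelope to desmosomes and keratin. The last 3 were named after their values were seen.

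Of 8 suprabasal keratins and upper-layer desmosomal cadherins, 0 rose, 3 fell and 5 did not pass, with a median of -0.44. The share that fell was 37.5%, against 16.3% of all genes tested, of which 14.8% rose. The desmoglein Dsg1a read 2533 to 2731 in wild-type and 1173 to 1351 in knock-in (-1.06 ± 0.09, limma adjusted p = 0.000107). Krt80 (-1.08 ± 0.13) and the desmocollin Dsc1 (-0.58 ± 0.10) also fell, and Krt77 did not pass (-0.64 ± 0.24). Of the 8, 5 had an unadjusted p under 0.05, as had 4993 of all 11670 genes.

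Of 23 enzymes and inhibitors of filaggrin processing and shedding, 4 rose, 7 fell and 12 did not pass, with a median of -0.18. The share that rose, 17.4%, was near the 14.8% of all genes tested. The share that fell was 30.4%, against 16.3%. Klk6, another kallikrein, read 384 to 565 in wild-type and 1562 to 1868 in knock-in, and rose by 1.84 ± 0.14 (limma adjusted p = 6.45e-05). Padi3, a deiminase of filaggrin and of the inner root sheath protein trichohyalin, read 1449 to 2562 and 317 to 742 (-1.92 ± 0.30, 0.00200). The part of the lower hair follicle markers in the value of Padi3 was not tested. St14, the protease matriptase (-0.98 ± 0.15), and the inhibitor Spint2 (-0.76 ± 0.11) fell with adjusted p of 0.00205 and 0.00160.

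Of 20 transcription regulators of epidermal differentiation, 1 rose, 8 fell and 11 did not pass, with a median of -0.19. The shares were 5% higher and 40% lower, against 14.8% and 16.3% of all genes tested. Gata3 read 678 to 853 in wild-type and 343 to 381 in knock-in (-1.04 ± 0.11, limma adjusted p = 0.000276). Grhl1 (-0.83 ± 0.11) and Maf (-0.68 ± 0.10) fell, and Nfe2l2, the regulator of antioxidant genes, rose (0.68 ± 0.10). Gata3 also acts in the inner root sheath of the hair follicle. Hair follicle markers were lower on the same arrays, and their part in the value of Gata3 was not tested.

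**Figure D5:**
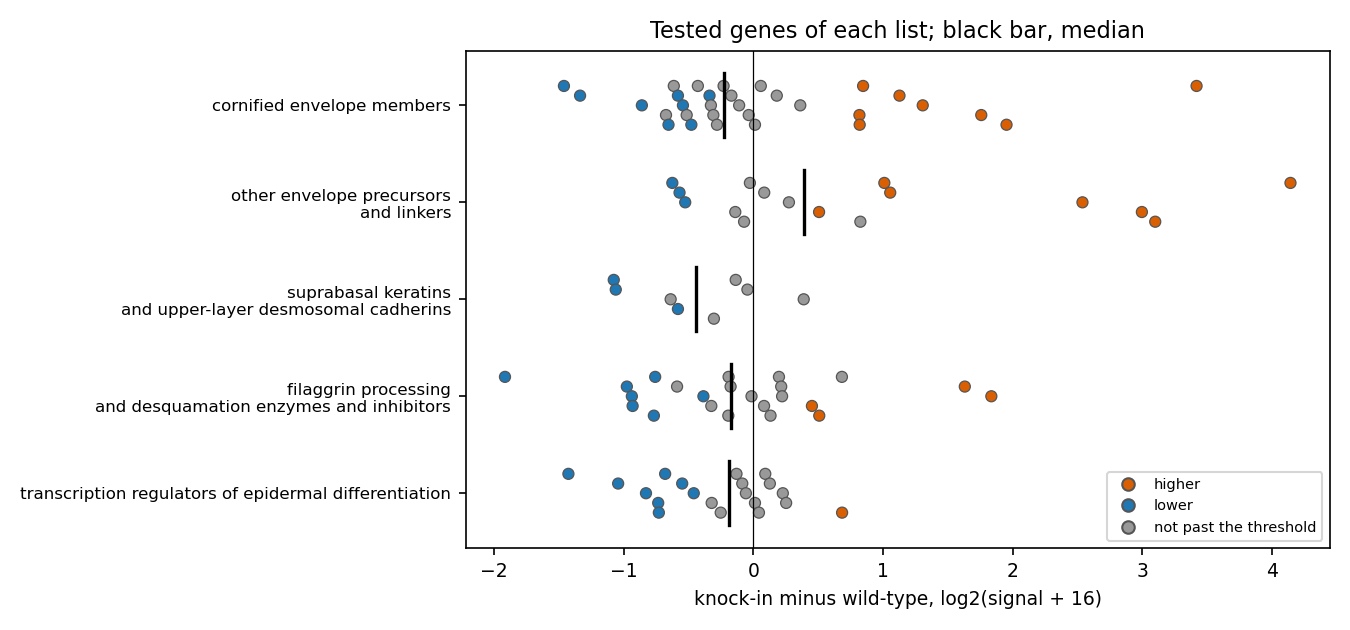
Log2 difference of each tested gene in the 31 members and in the 4 other lists, coloured by the call, with the median as a black bar. The medians are -0.23, 0.39, -0.44, -0.18 and -0.19 from top to bottom, against -0.02 over all genes tested.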

How the data were processed

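The authors deposited 1 linear MAS5 signal intensity per probe set and array, per the submitters' processing notes and the labels; the software version is not given in the sources used here. Each array had a 2% trimmed mean near 150, so no further normalization was applied. Of 45101 probe sets, 64 controls were left out of the test, 34945 had 1 symbol, 932 several and 9160 none. The arrays carry no detection calls.

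For each gene limma 3.58.1 (R 4.3.3; lmFit, then eBayes with a trend, two-sided) was run on log2(signal + 16) of the probe set with the highest mean, with Benjamini-Hochberg adjustment over 11670 genes and a threshold of 0.05. Within-array ratios used exact permutation tests over the samples. The median standard error of a difference was 0.13, and the number of arrays limits the precision. The procedure was tested on simulated data. Members past the threshold, or with groups apart, are given with all 6 signals, and up to 4 genes with the smallest p from each other list. The members and lists were chosen with earlier results of these data known. Sequences are from RefSeq, GRCm38.p6. Alternatives were other offsets, filters, scalings and probe set rules, a replicate block and leaving out each array.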

Additional observations from a re-analysis of the deposited data

How the results depend on the processing

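The 4 Lce3 genes, Lce1h, Scel, Cdsn and Tgm3 kept their calls under every alternative run for them. The stricter filter could not be run for Lce3a and Lce3f, nor the setting without shared probe sets for Lce3b, Lce3c and Lce1h. With an array left out, 2394 (without wild-type replicate 3) to 3367 genes passed of 3636, 6 to 8 members rose and 3 to 12 fell. Without probe sets marked as shared, 24 members were tested and 5 rose. With a stricter filter, 3 of 12 other envelope precursors rose. With an array left out, 1 to 2 transcription regulators rose, and the difference of Klk7 relative to Klk5 ran from -0.047 (without knock-in replicate 2) to 0.20. With median centring the median difference of all genes moved from -0.02 to 0.11, and 68.1% of calls were higher, against 47.6%; Crct1 and Spink5 then did not pass. The labels do not say that replicate numbers pair the samples. Correlations of same-numbered deviations were -0.25, -0.41 and -0.02, and those of differently numbered ones ran from -0.10 to 0.35. With 3 arrays per group these values cannot decide whether samples were paired. With the replicate block 5 members fell, and Kprp (0.0626), Crct1 (0.0844) and Spink5 (0.0912) did not pass. Signals near background limit what can be said of Lce1g and Nccrp1.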
